A study of Homo sapiens with 10 samples.

Results

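The sites described here are places on the chromatin where HER2 was listed after epidermal growth factor (EGF) in SKBR3 cells, and both with and without EGF in BT474 cells, but not in SKBR3 cells that received vehicle. They were chosen by overlap of the deposited peak lists: a peak of the SKBR3 EGF list was taken when it overlapped, by 1 bp or more, a peak of the BT474 vehicle list and a peak of the BT474 EGF list, and no peak of the SKBR3 vehicle list. This gave 1303 of the 2520 peaks of the SKBR3 EGF list, and of 43001 peaks in the 4 HER2 lists together. They are called the vehicle-missing sites below. The lists come from ChIP-exo of HER2 in BT474 and SKBR3, human lines established from breast tumours, both of which carry extra copies of ERBB2. Either line was given water as the vehicle, or EGF at 100 ng/ml for 3 hours, and each of the 4 conditions has 1 list. Monomethylation of lysine 4 on histone H3 (H3K4me1) was mapped by ChIP-seq in the same lines, with 2 libraries per line. The labels of the H3K4me1 libraries call the cells asynchronous and the study's text calls them EGF-treated.

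HER2, the product of ERBB2, is a receptor tyrosine kinase of the cell surface with no known ligand of its own. EGF binds to a related receptor, EGFR, which pairs with HER2 and activates the MAP kinase and PI3 kinase cascades. HER2 has also been described in the nucleus, where it can associate with chromatin. In ChIP-exo, DNA recovered with an antibody is trimmed by an exonuclease up to the crosslinked protein, so that binding is placed more sharply than with ChIP-seq. H3K4me1 marks enhancers, including those that are not active. Every library read on this kind of sequencer also carries synthetic adapters, and the P7 primer is the strand used to add one of them.

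Membership rests on the lists alone. Overlaps with a BT474 vehicle peak were found for 62.2% of all SKBR3 EGF peaks and overlaps with a BT474 EGF peak for 84.7%, and 86.7% of them overlapped no SKBR3 vehicle peak. These shares were used to select the sites and are given as a description. Of the 1546 SKBR3 EGF peaks in both BT474 lists, the vehicle-missing sites made up 84.3%, and the other 243, called kept sites, also overlapped an SKBR3 vehicle peak. Of the remaining SKBR3 EGF peaks, 517 were found in both EGF lists and in no vehicle list (EGF-only sites), 345 in no other list (SKBR3 EGF-private sites), and 112 in other combinations. The mirror pattern, peaks of the SKBR3 vehicle list in both BT474 lists but not in SKBR3 EGF, was made up of 180 peaks. These were 6.93% of the 2596 peaks of that list, whereas the vehicle-missing sites made up 51.7% of theirs. The SKBR3 lists also differed in how often they met the BT474 lists. Of the 7806 BT474 vehicle peaks also in BT474 EGF, 1303 were in SKBR3 EGF and not SKBR3 vehicle, 180 the other way round and 244 in both. With 1 list per condition and no read depth in the lists, an effect of EGF, the quality of the SKBR3 vehicle library and the threshold of the peak caller cannot be told apart. Confidence intervals below are 95% Wilson intervals. They cover counting error only, and since peaks are not replicates of a condition, no p-value is given across peaks.

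A set of sequences is printed first, because the letters at a part of these sites turned out to resemble the P7 primer. Each is the 101 bp around a peak's midpoint in GRCh37, read 5′ to 3′ on the strand that carries the longest uninterrupted run of primer bases, which is in capitals. The 3 vehicle-missing sites with the longest run lay in an intron of ATXN10 (chr22:46176761-46176861, plus strand), 268 kb from the defensin gene DEFB112 (chr6:50285696-50285796, plus strand) and 76.0 kb from LINC02686 (chr11:24181002-24181102, plus strand). Their runs were 14 bases long and covered primer bases 6 to 19, 5 to 18 and 8 to 21, counted from the 5′ end of the primer.
ATXN10 site: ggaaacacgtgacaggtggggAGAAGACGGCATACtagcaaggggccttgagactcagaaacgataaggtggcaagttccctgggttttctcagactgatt
DEFB112 site: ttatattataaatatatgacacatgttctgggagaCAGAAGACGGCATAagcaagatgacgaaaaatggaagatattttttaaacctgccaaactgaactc
LINC02686 site: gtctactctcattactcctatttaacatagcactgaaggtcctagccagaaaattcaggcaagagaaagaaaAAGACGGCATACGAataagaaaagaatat
A further pair is shown because it combined the core motif described below with H3K4me1 in all 4 libraries. It lay 8.06 kb from C2orf76 (chr2:120051690-120051790, plus strand), with a run of 7 bases at the end of the primer, and in an intron of ZC3H12A-DT (chr1:37937260-37937360, plus strand), with a run of 11 bases from base 13 to base 23.
C2orf76 site: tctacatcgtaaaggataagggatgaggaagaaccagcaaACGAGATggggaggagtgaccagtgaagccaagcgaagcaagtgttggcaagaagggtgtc
ZC3H12A-DT site: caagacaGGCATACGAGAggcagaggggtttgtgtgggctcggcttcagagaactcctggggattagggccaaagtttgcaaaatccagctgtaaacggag
Beside them, 2 of the 3 SKBR3 EGF-private sites with the longest runs, from peaks found in no other list, lay in SCAF11, upstream of an internal start site (chr12:46321201-46321301, plus strand) and in an intron of ASB7 (chr15:101148057-101148157, minus strand). Their runs covered bases 5 to 18 and 7 to 17. The first of these is the same stretch as at the DEFB112 site, so the longest runs alone do not set the groups apart.
SCAF11 site: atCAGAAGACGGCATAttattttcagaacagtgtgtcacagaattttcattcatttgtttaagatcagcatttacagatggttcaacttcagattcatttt
ASB7 site: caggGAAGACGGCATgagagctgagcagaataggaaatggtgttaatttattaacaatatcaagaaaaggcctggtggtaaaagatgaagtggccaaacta
The vehicle-missing site of highest score, 27.2 kb from NAA11 (chr4:80274365-80274465, plus strand), looked different. It was a tract rich in A and G (87.1% of its bases) and held a run of 7 primer bases.
NAA11 site: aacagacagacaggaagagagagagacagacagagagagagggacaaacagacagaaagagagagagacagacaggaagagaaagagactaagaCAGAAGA

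The vehicle-missing sites lay around the middle of the SKBR3 EGF list by score. Each peak carries a score from the deposited list whose scale is not stated, so scores were ranked within a list and expressed as a percentile, with 100 at the top. In the SKBR3 EGF list the median percentile of these sites was 53.0, and their scores ran from 4 to 14420 with a median of 135.5. At the same sites the median percentile was 73.7 in the BT474 vehicle list and 92.8 in the BT474 EGF list. The lists hold 2520, 8559 and 29326 peaks and presence in both BT474 lists was required, so these percentiles do not compare strength between the lines. With both BT474 lists cut to their 2520 highest scores, 548 of the sites were left. The kept sites ranked higher in all 3 lists, with medians of 75.5, 84.7 and 97.7, whereas the EGF-only sites ranked lower, at 42.8 in SKBR3 EGF and 66.3 in BT474 EGF. The SKBR3 EGF-private sites had a median percentile of 29.7.

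Every part of the SKBR3 EGF list held vehicle-missing sites. The list was cut by score into 10 bins of 252 peaks. They formed 49.6% of the top bin, 63.5% of the next and 40.1% of the bottom bin. The kept sites were concentrated at the top, with 22.6% of the top bin and 5.95% of the bottom bin. Read from the BT474 side, the pattern followed the BT474 score. Of the 7785 BT474 EGF peaks that overlapped a BT474 vehicle peak, 1288 were found in SKBR3 EGF and not in SKBR3 vehicle, 183 in SKBR3 vehicle and not in SKBR3 EGF, 247 in both and 6067 in neither. When these peaks were cut by score into 10 bins, 41.7% of the top bin were found in SKBR3 EGF alone, 18.4% in both SKBR3 lists and 3.34% in SKBR3 vehicle alone. In the bottom bin the shares were 5.26%, 0.385% and 0.513%. Ranked by the BT474 vehicle score in place of the BT474 EGF score, the share found in SKBR3 EGF alone went from 40.3% in the top bin to 10.5% in the bottom bin.

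**Figure D1:**
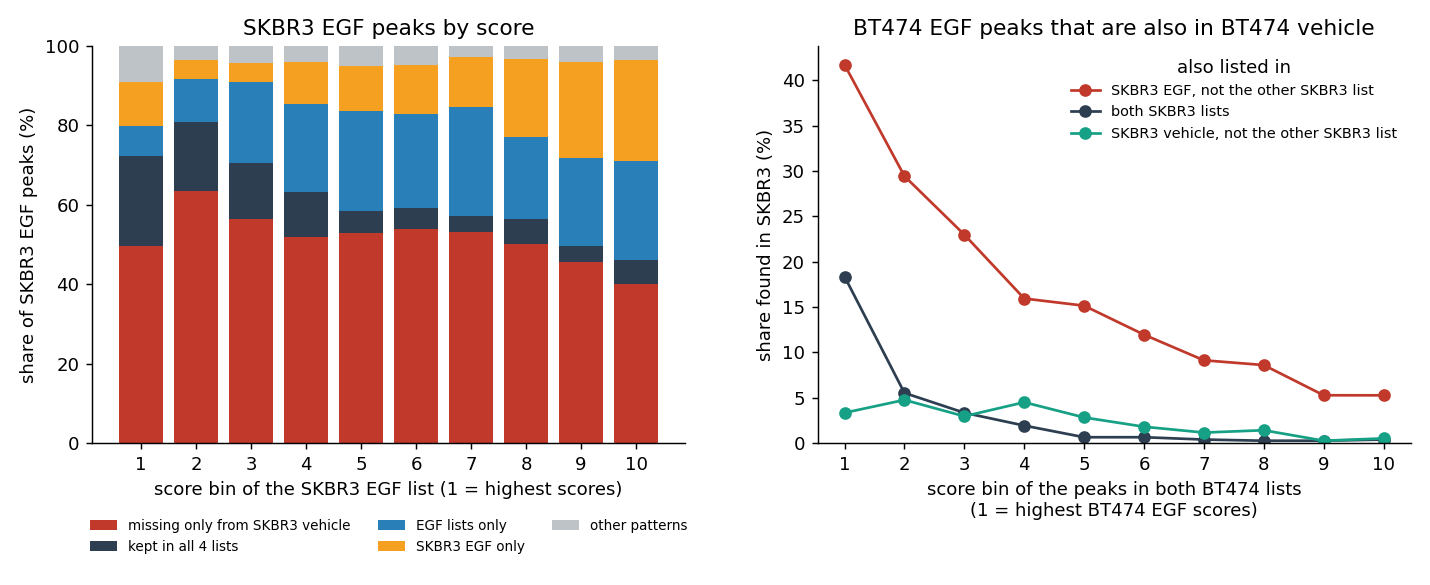
Left, share (%) of the SKBR3 EGF peaks in each group in 10 bins of the list, with the highest scores in bin 1; the sites missing only from SKBR3 vehicle (red) made up 49.6% of the top and 40.1% of the bottom bin. Right, share (%) of the BT474 EGF peaks also in BT474 vehicle that were listed in SKBR3, in 10 bins of the BT474 EGF score; the share found in SKBR3 EGF alone fell from 41.7% to 5.26%.

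The order of the sites by score was shared between the BT474 lists more than between the cell lines. Over the 1303 sites, Spearman's rank correlation of the scores was 0.665 between BT474 vehicle and BT474 EGF, 0.299 between SKBR3 EGF and BT474 EGF, and 0.176 between SKBR3 EGF and BT474 vehicle. The BT474 lists share the cell line, its input DNA and its copy number, and these values are a description with no test. The peaks were also wider in BT474, with medians of 280 bp after vehicle and 319 bp after EGF, against 221 bp in SKBR3 EGF. Among the vehicle-missing sites, 371 (28.5%) were exactly 200 bp wide in SKBR3 EGF, against 13.6% of the kept sites, 43.3% of the EGF-only sites and 45.2% of the SKBR3 EGF-private sites.

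The strongest vehicle-missing sites were mostly outside genes or in introns. The site of highest score, rank 3 in the whole SKBR3 EGF list, lay on chromosome 4 from 80274101 to 80274728, between genes, with a score of 14420. It ranked 57th of 8559 in BT474 vehicle and 10th of 29326 in BT474 EGF, and it had the best result of all these sites in its weakest list. A neighbouring site, from 80273493 to 80274049, had a score of 4264 and overlapped the same BT474 EGF peak. The second by score, in an intron of PMF1, which encodes a kinetochore protein, was only 53 bp wide, from 156186713 to 156186765 on chromosome 1. Its score of 5149.5 was shared by a peak of 12 bp nearby, and its overlap was 33 bp with BT474 vehicle and 14 bp with BT474 EGF, the smallest of all the sites in both cases. Whether the narrow peaks that share this score are pieces of a single larger peak was not tested, so the score and rank may not belong to these 53 bp alone. Only 1 other vehicle-missing site was narrower than 200 bp, at 42 bp, 0.676 kb from RN7SKP33.

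Further strong sites lay in introns of protein-coding genes. An intron of MYT1L, a neuronal zinc-finger transcription factor, held a site at chromosome 2, 2299211 to 2299650, with a score of 2711.5, rank 13 in SKBR3 EGF, 1463 in BT474 vehicle and 1772 in BT474 EGF. An intron of GPHN, encoding the synaptic scaffold gephyrin, held the site ranked 19, which was 433 bp from an SKBR3 vehicle peak. The sites ranked 21 to 33 lay 41.9 kb from C10orf71-AS1, in introns of CDH4 and LINC01365, 0.723 kb from CCDC63, and inside MIR663AHG at a promoter. The last of these illustrates how unequal the lists can be, as it ranked 33 in SKBR3 EGF and 28085 in BT474 EGF. Sites that ranked high in all 3 lists included, after the one near NAA11, those near CCDC63 (ranks 30, 77 and 9 in SKBR3 EGF, BT474 vehicle and BT474 EGF), 1.64 kb from LINC02139 (34, 27 and 19) and in PIPOX (39, 151 and 77).

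Few members depended on the limit of the overlap. Only 21 of the sites were covered to less than 50% by BT474 vehicle peaks and 3 by BT474 EGF peaks. The nearest SKBR3 vehicle peak was at a median distance of 274 kb, 19 sites lay within 1 kb of one and 56 within 10 kb. The closest were 55 bp away, in an intron of COL22A1, 95 bp away in LINC01445 and 101 bp away in ZC3H12A-DT. Just outside the rule, the kept sites with the smallest overlap shared 51 bp with SKBR3 vehicle, 15.1 kb from snoU13, 61 bp in ATXN1 and 62 bp in RAD21L1. The sites were also separate from each other: joining those within 1 kb left 1293 loci, of which 10 held more than 1 site.

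The core motif that the study named, CGTNTGC with N for any base, was common at these sites. The study found it by de novo search in these same data, at SKBR3 EGF peaks and at BT474 peaks. Its frequency here is therefore a description and not independent of that search. Both strands were searched for it, up to 50 bp from the midpoint, and it lay there at 206 vehicle-missing sites, which was 15.8% (interval 13.9 to 17.9%), against 12.0% of all SKBR3 EGF peaks. In windows of the same size 1 kb to either side, 1.57% (1.16 to 2.13%) held it. The share was 20.2% (15.6 to 25.7%) at the kept sites, 6.0% (4.26 to 8.39%) at the EGF-only sites and 2.03% (0.986 to 4.13%) at the SKBR3 EGF-private sites. The intervals of the vehicle-missing and kept sites overlapped, and those of the 2 other groups lay below both. The difference from the EGF-only sites was 9.81 percentage points, and it was 5.59 points when the core was sought around the BT474 EGF midpoints, an alternative chosen after seeing the data. Of the 180 mirror peaks in SKBR3 vehicle, 12.8% (8.67 to 18.4%) had the core, against 3.47% of the whole SKBR3 vehicle list. The groups differ in their BT474 lists by selection, and these shares were not tested.

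The core was more frequent where the score was lower in SKBR3 and where it was higher in BT474 vehicle. When the vehicle-missing sites were divided in 4 by SKBR3 EGF score, the core was present in 9.51% (6.78 to 13.2%) of the strongest part and in 21.8% (17.6 to 26.6%) of the weakest. When they were divided by BT474 vehicle score, the order turned, with 25.5% (21.0 to 30.5%) in the strongest part and 8.59% (6.01 to 12.1%) in the weakest. By BT474 EGF score the share was 15.3% (11.8 to 19.7%) in both the strongest and the weakest part. The sites with the core had a median percentile of 40.0 in SKBR3 EGF, 87.2 in BT474 vehicle and 92.4 in BT474 EGF. Those without it were at 55.3, 70.8 and 92.8. The other groups were compared with the whole SKBR3 EGF list divided in 4 by score. In the strongest and the weakest part, the core share was 1.47% and 9.03% at the EGF-only sites. It was 21.1% and 34.5% at the kept sites, and 2.13% and 1.99% at the SKBR3 EGF-private sites. In each of these groups the intervals overlapped, so the rise at low SKBR3 scores cannot be called particular to the vehicle-missing sites.

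The reverse complement of the core, GCANACG, matches bases 14 to 20 of the 24-base P7 primer, which read GCATACG. The last 8 bases of the primer, TACGAGAT, were found within 50 bp of the midpoint at 48 vehicle-missing sites (3.68%, interval 2.79 to 4.85%), against 2.5% of all SKBR3 EGF peaks. None of the windows to either side held this word, which allows a share of up to 0.294% by the Wilson interval on each side. Uninterrupted runs of 8 or more primer bases, from any part of it, were found at 349 sites (26.8%, interval 24.5 to 29.3%), against 23.5% of all SKBR3 EGF peaks and 3.15% of the windows to either side. Such runs were at 26.3% of the kept sites, 14.9% of the EGF-only sites and 22.9% of the SKBR3 EGF-private sites. A run of 10 or more bases was found at 6.60% of the vehicle-missing sites and in 0.0767% of the windows to either side of them. It was at 5.71% of all SKBR3 EGF peaks and 9.47% of the kept sites. The core or a run of 8 bases was present at 426 vehicle-missing sites (32.7%, interval 30.2 to 35.3%), so that most of them showed neither. That share was 28.2% over all SKBR3 EGF peaks and 32.1% at the kept sites.

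The part of the primer that was most frequent was then compared between groups of SKBR3 EGF peaks. At the vehicle-missing sites, the most frequent of the 17 words of 8 bases along the primer was the one that starts at base 14, GCATACGA, at 7.06% (interval 5.79 to 8.58%) against 0.153% of the windows to either side. Words that start at bases 13 to 16 all stood above 5%, and those that start at bases 1 to 10 did not exceed 2.30%. The kept sites had the same form, with a maximum of 11.5% (8.09 to 16.1%) at base 14. At the SKBR3 EGF-private sites the words that start at bases 13 and 14 were at 0 of 345 peaks, which allows a share of up to 1.1%, and the most frequent word, AGACGGCA, started at base 9 (6.38%, interval 4.25 to 9.47%). Any word that starts at base 11 or later was present at 20.2% (18.1 to 22.4%) of the vehicle-missing sites and 4.35% (2.65 to 7.05%) of the SKBR3 EGF-private sites. Any word that starts at bases 7 to 10 was present at 3.07% (2.26 to 4.15%) and 10.4% (7.63 to 14.1%). For base 11 or later and for bases 7 to 10, the EGF-only sites gave 6.19% (4.42 to 8.61%) and 2.90% (1.77 to 4.73%). All SKBR3 EGF peaks gave 14.7% and 4.05%. The low share at bases 7 to 10 was thus also seen at the EGF-only sites. Neighbouring words share letters and are not independent.

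**Figure D2:**
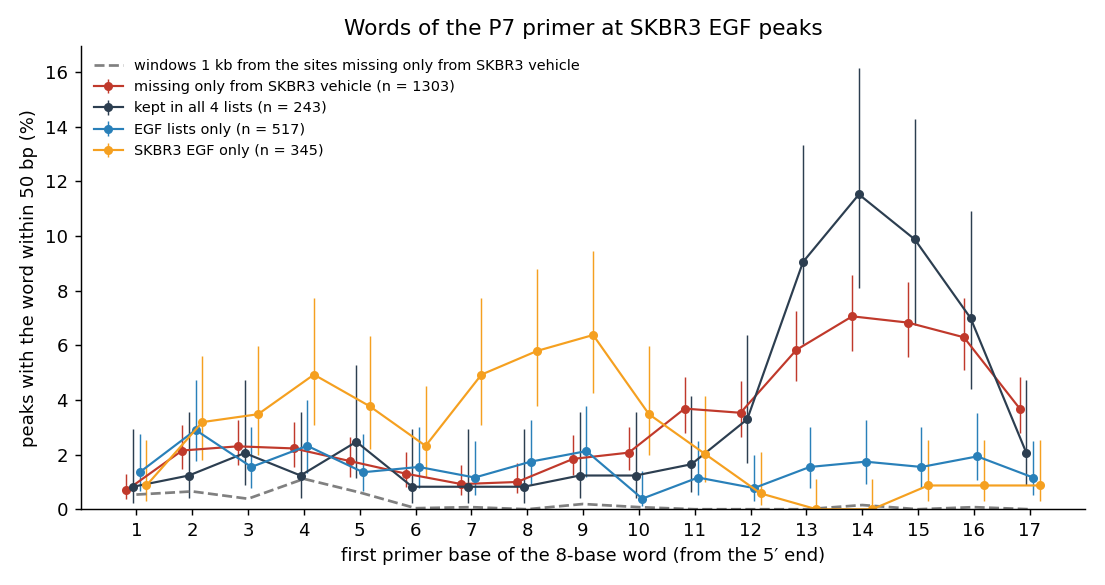
Share (%) of SKBR3 EGF peaks with each 8-base word of the P7 primer within 50 bp of the midpoint, by the first base of the word, with 95% Wilson intervals as error bars; the dashed line gives windows 1 kb to either side of the sites missing only from SKBR3 vehicle. These sites (red) and the kept sites (dark) were highest at base 14, at 7.06% and 11.5%, and the SKBR3 EGF-private sites (orange, labelled SKBR3 EGF only) at base 9, at 6.38%.

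Bases that the core does not fix also matched the primer. The primer was laid over each of the 206 sites with the core so that bases 14 to 20 fell on it, and compared in the same way with 650 cores found 1 to 3 kb from the vehicle-missing sites. Base 21 matched at 76.7% (interval 70.5 to 82.0%) of the sites and at 16.5% of the distant cores. Base 17, the free base inside the core, matched at 61.2% (54.4 to 67.6%) against 8.15%, base 22 at 57.3% against 23.7%, base 23 at 54.4% against 23.4% and base 13 at 54.4% against 30.3%. Among the bases further 5′, base 9 stood out at 49.5% (42.8 to 56.3%) against 24.9%. At bases 1, 2, 4, 5, 7, 8, 10 and 24 the intervals overlapped those of the distant cores. The last base, 24, matched at 25.7% (20.2 to 32.1%) against 19.4%. The primer read on the plus strand at 99 of these sites and on the minus strand at 107.

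**Figure D3:**
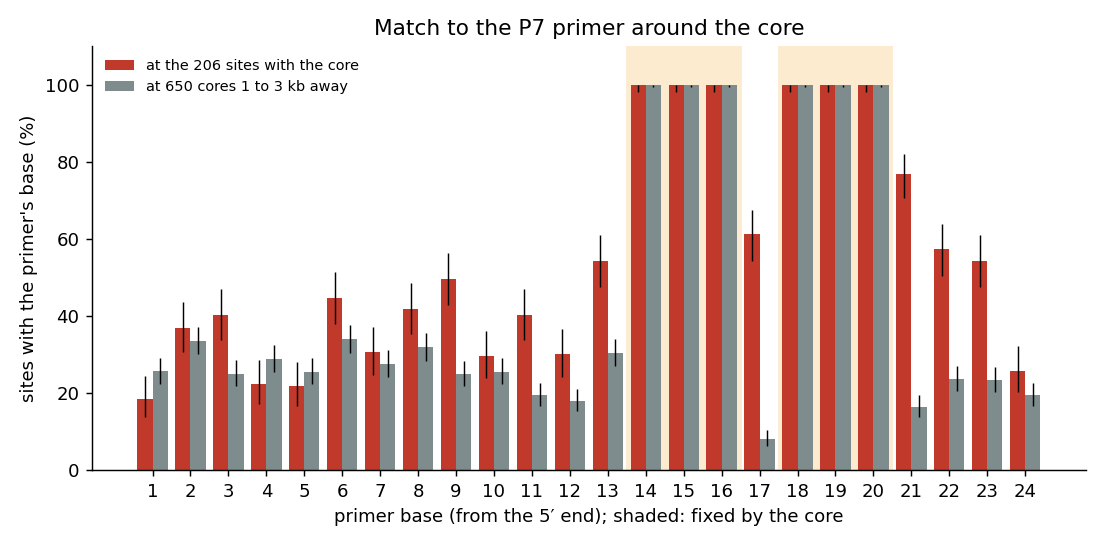
Share (%) of sites whose base is that of the P7 primer, by primer base, at the 206 sites missing only from SKBR3 vehicle that carry the core (red) and at 650 cores 1 to 3 kb away (grey), with 95% Wilson intervals; shaded bases are fixed by the core. Outside the shading, the widest gap was at base 21, with 76.7% against 16.5%.

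The BT474 peaks lay mostly to one side of the core, and the SKBR3 peaks did so much less, within the limits of the search. Distances were read along the primer's direction, from its last base to the midpoint of the peak in each list. In BT474 vehicle, the midpoint lay beyond the end of the primer at 194 of the 206 sites (94.2%, interval 90.1 to 96.6%), with a median distance of 35 bp. In BT474 EGF it did so at 185 sites (89.8%, interval 84.9 to 93.2%), with a median of 33 bp. In SKBR3 EGF it did so at 105 sites (51.0%, interval 44.2 to 57.7%), with a median of 1 bp. At 180 of these sites the BT474 vehicle midpoint was further along than the SKBR3 EGF midpoint. The core was sought around the SKBR3 EGF midpoint, which limits the distances in that list to about 50 bp but not those in BT474. The centred SKBR3 EGF distances are thus partly set by the search. With the core sought in the whole SKBR3 EGF peak, at 264 sites, 57.2% (51.2 to 63.0%) of the SKBR3 EGF midpoints lay beyond the primer, with a median of 5.5 bp. The shares were then 90.9% in BT474 vehicle and 87.5% in BT474 EGF. Around the midpoints of the BT474 vehicle peaks, 11.6% of the vehicle-missing sites held a core within 50 bp.

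**Figure D4:**
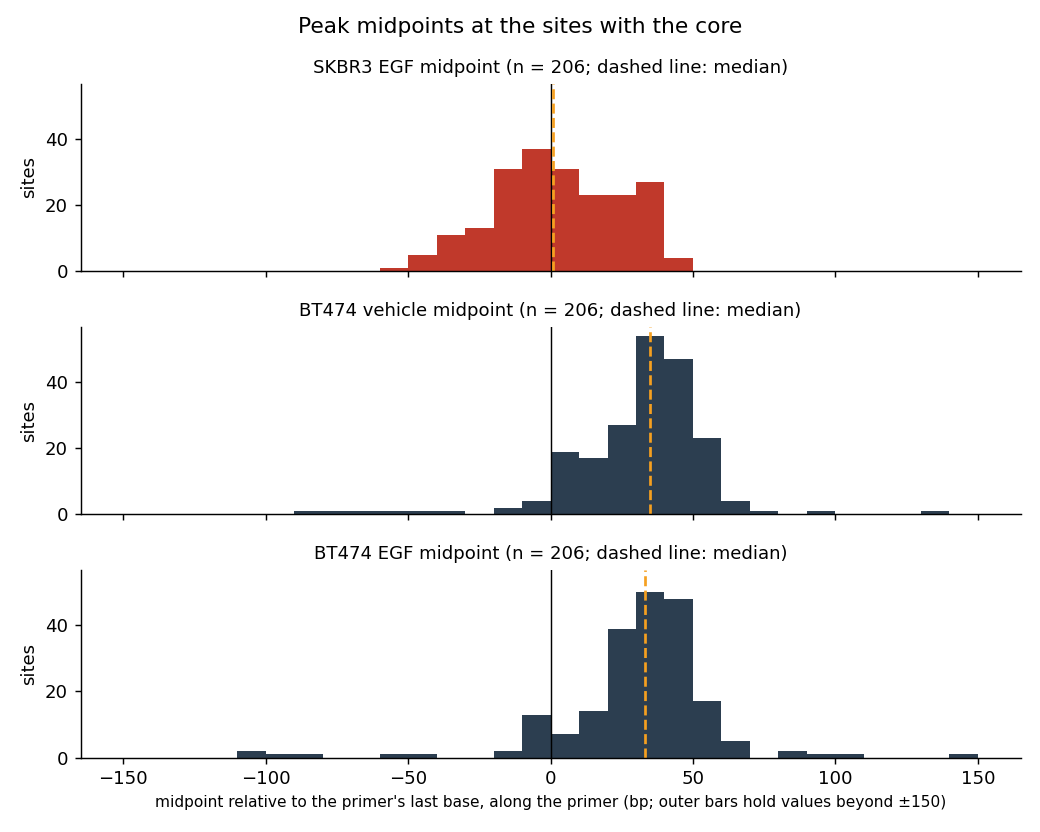
Number of sites by the distance (bp) of the peak's midpoint from the last base of the primer, along the primer's direction, at the 206 sites with the core, in the 3 lists that hold them. The SKBR3 EGF midpoints, around which the core was sought, were spread around 1 bp. The BT474 midpoints lay mostly to the right of 0, with medians of 35 and 33 bp (dashed lines).

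Most vehicle-missing sites lay in introns and between genes. By their midpoints, 54.0% (interval 51.2 to 56.6%) were in introns, 36.8% (34.2 to 39.4%) in intergenic sequence, 4.68% in exons and 4.60% (3.59 to 5.88%) in promoters, taken as the 1 kb before any start of transcription. All SKBR3 EGF peaks were placed much alike, with 53.2% in introns, 37.3% in intergenic sequence and 4.48% in exons. Promoters held 4.96% of all SKBR3 EGF peaks, 3.29% (1.68 to 6.36%) of the kept sites, 5.22% of the EGF-only sites and 6.96% (4.72 to 10.1%) of the SKBR3 EGF-private sites. All of these intervals overlapped that of the vehicle-missing sites. Sites with and without the core were placed alike, with 4.37% and 4.65% in promoters and 56.8% and 53.4% in introns, within overlapping intervals.

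Of the sites, 40 (3.07%) were within 1 kb upstream of a protein-coding start site, which can be an internal start site of the gene. Of the 8 strongest, those of GCGR, SRP68, CREBBP, HERC3 and POLE lay inside the gene itself, and those of OCA2, TNFSF9 and COL6A1 outside it. The strongest was 366 bp from a start site of GCGR, the glucagon receptor gene, with ranks of 74 in SKBR3 EGF, 744 in BT474 vehicle and 465 in BT474 EGF, and it carried the core. The next were at start sites of OCA2, a gene of melanin synthesis (ranks 81, 239 and 98), and of SRP68, encoding a subunit of the signal recognition particle (97, 2091 and 2680), and the latter lay in H3K4me1 in all 4 libraries. Sites followed at CREBBP, the gene of a histone acetyltransferase (301, 1801 and 454), at the TNF family gene TNFSF9 (331, 994 and 276), at HERC3 (335, 6375 and 3899), at COL6A1, a collagen gene (364, 6656 and 1192), and at POLE, encoding the catalytic subunit of a DNA polymerase (384, 2431 and 711). Of these 8, only the GCGR site had the core within 50 bp of its midpoint.

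In all, 572 protein-coding genes had a vehicle-missing site inside them, 2.85% of the 20090 in the annotation. Of the genes of any type with such a site, 756 held 1, 65 held 2 and 10 held more. SDK1, encoding an adhesion molecule of synapses and 968 kb long, held 4. The other 9 held 3 each: the calcium and potassium channel genes CACNA1C and KCNMA1, the cadherin and catenin genes CDH4 and CTNNA3, the adhesion gene OPCML, the splicing factor RBFOX1, the histone deacetylase HDAC9, JMJD1C of the histone demethylase family, and SMG6, which acts in decay of messenger RNA. All 10 genes were long, from 244 to 2474 kb, while the median protein-coding gene measured 27.3 kb. Among the 3659 protein-coding genes of 100 kb or more, 9.59% held a vehicle-missing site. Per Mb of gene, the long genes held 0.454 sites and all protein-coding genes 0.470.

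Sites within 1 gene could differ widely in rank. The 3 sites of OPCML ranked 76, 884 and 2519 in SKBR3 EGF, and the last of these, with a score of 4, was the weakest of all vehicle-missing sites. In BT474 vehicle they ranked 131, 736 and 1470. The strongest OPCML site carried the core with a run of 10 primer bases, and its partners did not. JMJD1C held sites ranked 383, 878 and 1241, with runs of 8, 8 and 10 bases. Those ranked 383 and 878 lay in H3K4me1 in all 4 libraries and the other in none. CDH4, of 3 sites in introns, also held 9 other SKBR3 EGF peaks, the most among these 10 genes. SMG6, CACNA1C and JMJD1C held no other SKBR3 EGF peak.

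Genes were then taken from 11 lists, which cover EGF signalling and also other receptor tyrosine kinases, luminal transcription factors and cell adhesion. Of their 195 genes, 16 (8.21%) held a vehicle-missing site, against 2.85% of all protein-coding genes, and the listed genes were longer, with a median of 86.1 kb. Per Mb of gene, the lists held 0.736 sites against 0.470 for all protein-coding genes, and 9 of their 23 sites lay in the cadherin and catenin list. These values are a description with no test, and the lists were drawn up with earlier results of these data known. Among the ERBB receptors, EGFR and ERBB3 held sites, and ERBB2 and ERBB4 did not. Of 11 genes for EGF family ligands, only NRG2, a neuregulin that binds ERBB receptors, held one. The adaptors and second messengers gave 1 of 20, VAV3, a guanine nucleotide exchange factor. The MAP kinase cascade gave 2 of 31, MAPK8 and MAPK10, which encode JNK kinases. PI3 kinase and AKT gave 1 of 17, RPTOR of the mTOR complex. Protein kinase C gave 4 of 9, PRKCB, PRKCH, PRKCI and PRKCQ, and cadherins, catenins and adherens junction 4 of 16, CDH4, CTNNA2, CTNNA3 and CTNND2. Other receptor tyrosine kinases gave 1 of 46, AXL. STAT and JAK (11 genes), feedback inhibitors of EGF signalling (16 genes, with a median of 14.8 kb) and luminal transcription factors (15 genes) held none.

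EGFR, the receptor that binds EGF, held 2 of the sites, both in introns. At chromosome 7, 55129942 to 55130145, the score was 85.5, with ranks of 1722 in SKBR3 EGF, 8170 in BT474 vehicle and 8887 in BT474 EGF. At 55163361 to 55163706 the score was 270, with ranks of 358, 1357 and 275. The second was thus the stronger in every list. Both sites lay in H3K4me1 islands of both SKBR3 libraries and of neither BT474 library. The island around the first held 1688 reads over 30.8 kb in SKBR3 replicate 1, and a single island of 5196 reads over 80.2 kb covered both in replicate 2. Neither site had the core, and their longest primer runs were 6 and 5 bases.

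The single ERBB3 site, at chromosome 12, 56495537 to 56495787, was in a coding exon and ranked 160, 2350 and 5134 in SKBR3 EGF, BT474 vehicle and BT474 EGF. It lay in no H3K4me1 island. PRKCH, a protein kinase C gene that the study names, held a site in an intron at chromosome 14, 61880669 to 61880873, with ranks of 1191, 357 and 157, a run of 8 primer bases and no H3K4me1. The study lists PRKCH among genes near sites shared by HER2 and H3K4me1, which need not be this peak. The PRKCI site ranked 536, 1278 and 3070 and lay in H3K4me1 in all 4 libraries, with 380 and 368 reads in the SKBR3 islands and 541 and 443 in the BT474 islands. The AXL site, at chromosome 19, 41727971 to 41728255, also lay upstream of the gene ENSG00000269652. It carried the core and ranked 794 in SKBR3 EGF but 40 in BT474 vehicle and 76 in BT474 EGF. The RPTOR site showed the same imbalance, with ranks of 2447, 1488 and 1134, and the CTNND2 site held a run of 11 primer bases.

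H3K4me1 was found at a minority of the sites. A vehicle-missing site overlapped an island, a stretch of enriched reads called by the authors, in 15.4% of cases in each of the SKBR3 libraries and in 13.6% and 12.2% in the BT474 libraries. The mean was 15.4% ± 0.0 in SKBR3 and 12.9% ± 0.977 in BT474 (SD, n = 2 each), so that both SKBR3 libraries were above both BT474 libraries. The difference was 2.53 percentage points, with p = 0.333 in a two-sided exact permutation test over the 4 libraries, the smallest p that 2 against 2 allows. Of the 201 sites counted in each SKBR3 library, 176 were the same. The islands covered 317 and 320 Mb in SKBR3 and 309 and 296 Mb in BT474, and held from 15097245 to 18714089 reads. Other SKBR3 EGF peaks gave similar values, with 15.0% ± 0.581 in SKBR3 and 11.9% ± 0.116 in BT474 over all 1217 outside the vehicle-missing sites.

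**Figure D5:**
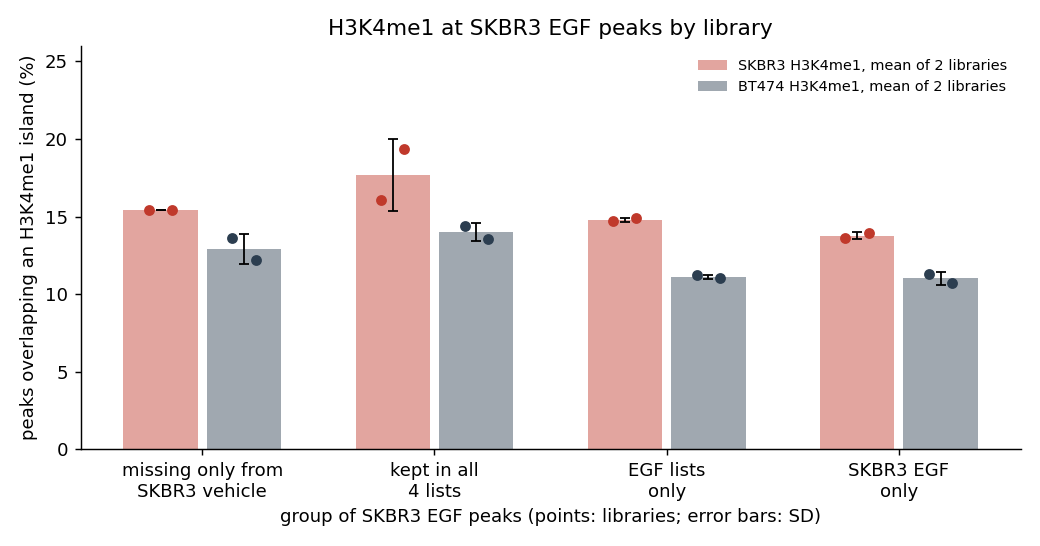
Share (%) of the SKBR3 EGF peaks of each group that overlapped an H3K4me1 island in each library (points), with the mean of the 2 libraries of a line (bars) and the SD (error bars). In all 4 groups shown, both SKBR3 libraries were above both BT474 libraries, and the sites missing only from SKBR3 vehicle gave 15.4% and 12.9%.

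By library pattern, 97 vehicle-missing sites (7.44%) lay in islands of all 4 libraries and 1012 (77.7%) in none. A further 65 (4.99%) lay in both SKBR3 and no BT474 library, and 37 (2.84%) in both BT474 and no SKBR3 library. Over all SKBR3 EGF peaks the shares in this order were close to these, at 6.90%, 77.4%, 5.28% and 2.94%. Sites between genes were the least marked of the larger classes, with 12.4% ± 0.738 in SKBR3 and 8.77% ± 0.590 in BT474, while introns gave 17.1% ± 0.402 and 14.3% ± 1.31. The 60 promoter sites gave 18.3% ± 0.0 in SKBR3 and 25% ± 2.36 in BT474, the opposite order, from 11 sites in each SKBR3 library. The 21 coding exon sites had this order too, at 4.76% ± 0.0 in SKBR3 and 14.3% ± 6.73 in BT474. The 29 untranslated exon sites did not, at 29.3% ± 2.44 and 25.9% ± 2.44. Sites with the core were marked in 17.7% ± 0.343 of cases in SKBR3 and 16% ± 2.75 in BT474, and sites without it in 15.0% ± 0.0644 and 12.3% ± 0.645 (SD, n = 2 libraries throughout).

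The strongest sites marked in all 4 libraries were those near LINC02139, in NR4A1, in SRP68, in KCNMA1 and in NBAS. The LINC02139 island held 170 and 66 reads in the SKBR3 libraries and 141 and 113 in the BT474 libraries. NR4A1, an immediate early gene for a nuclear receptor, held a site at chromosome 12, 52419960 to 52420278, with ranks of 92, 482 and 326 and islands of 56 and 67 reads in SKBR3 and 99 and 58 in BT474. The KCNMA1 site ranked 130, with 916 and 660 reads in SKBR3 against 458 and 365 in BT474, over islands of 5.8 to 11 kb. NBAS held the site ranked 133, with 576 and 561 reads in SKBR3 over 11.2 and 12 kb, and 237 and 208 in BT474 over 3.4 kb in both libraries. Reads were not scaled for depth.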

How the data were processed

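HER2 peaks (ChIP-exo, 1 list per condition) and H3K4me1 islands (ChIP-seq, 2 libraries per line) were used as deposited. The 2 input samples were not analysed here. The score of each HER2 peak was given by the authors in steps of 0.5 on an unstated scale, and H3K4me1 islands were deposited with a read count each, unscaled. The submitters' processing notes name BWA 0.5.9, MACS 1.4.1, SICER 1.1 and GRCh37. The study's methods describe bowtie2 and MACS2 for hg19, with removal of blacklisted regions and of regions with a high input signal, so the aligner and caller could not be settled. The lists give no depth for HER2, no summits and no peaks below the authors' threshold.

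Groups followed the labels. Peaks overlapping by 1 bp or more were counted as shared. Sequence was read from the GRCh37 primary assembly and genes from GENCODE release 44 mapped to GRCh37. The core and the words of Illumina's public P7 primer, which no file used here holds, were sought on both strands within 50 bp of a midpoint and in windows 1 kb to either side. Features were assigned in the order promoter (1 kb upstream of any start site), exon, intron and intergenic. The sites named were the 10 of highest score, the 5 best in their weakest list, those in the genes with the most sites, the 8 strongest within 1 kb upstream of a protein-coding start site, those in the listed genes or in genes the study names, the 5 strongest in islands of all 4 libraries, those with the longest primer runs, and those nearest the overlap limits. From sets of over 10, a selection is given, and 1 site of these sets is not reported here. The sites and gene lists were chosen with earlier results of these data known. Python 3.11.15, pandas 2.3.3, pysam 0.24.0 and scipy 1.17.1 were used. The overlap, motif and run searches were tested on simulated data. H3K4me1 was compared over libraries by an exact permutation test, and 51 alternatives were computed, of which 10 were chosen after seeing the data.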

Additional observations from a re-analysis of the deposited data

How the results depend on the processing

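Of 51 alternatives, 37 were counted as kept, 14 as moved and 0 as reversed in direction. Shares were kept when within their interval or SD, and the tested difference when on its side of the threshold. The number of sites was judged by a fixed ratio and not by an error. The median score percentile was judged by the SD over the sites, a wide limit, as their quartiles were 28.8 and 77.5. The exact test of the H3K4me1 difference cannot reach the threshold of 0.05, so its alternatives could only be counted as kept or reversed. With 2 libraries per line, each H3K4me1 share lies within the SD of their mean, so leaving a library out always counted as kept. The number kept is therefore no measure of stability for H3K4me1. Cutting both BT474 lists to 2520 peaks left 548 sites, with the core at 18.2% and the last 8 primer bases at 5.29%. Keeping only the upper 50% of the SKBR3 EGF list by score left 691 sites, with the core at 11.9%. The core was found at 20.3% of the sites in the whole peak and at 19.6% within 100 bp. The last 7 primer bases were found at 9.52% and the last 9 at 2.53%. Promoters held 9.36% with 1 kb to either side of a start site and 3.07% with protein-coding start sites alone. With the midpoint inside an island, H3K4me1 was at 14.9% in SKBR3 and 11.9% in BT474. The core share exceeded that of the EGF-only sites by 9.81 percentage points around SKBR3 EGF midpoints and by 5.59 around BT474 EGF midpoints, a comparison chosen after seeing the data. The cause of these changes was not tested.

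Leaving out 1 H3K4me1 library gave 15.4% in SKBR3 both times, 12.2 to 13.6% in BT474 and a difference of 1.84 to 3.22 percentage points, each with an exact permutation p of 0.333. The replicate block (the difference within each replicate number) gave 2.53 points, from 1.84 and 3.22, with an exact p of 0.5, the smallest that 2 pairs allow. The labels give the numbers no shared origin, so the samples share only a number. Leaving out peaks narrower than 200 bp, chosen after seeing the data, left 1301 sites. Depth limits these results, as HER2 lists hold no reads and a site below the threshold in SKBR3 vehicle cannot be seen.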

Other observations

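The vehicle-missing sites were unevenly placed along the chromosomes, given here as values with no test. Chromosome 7 held 145 sites, the most, and was the densest at 0.911 sites per Mb against 0.429 over all chromosomes. Chromosomes 19, 20 and 12 followed with 0.727, 0.714 and 0.605 sites per Mb. The other SKBR3 EGF peaks were also dense on chromosome 7, at 0.804 per Mb against 0.401 over all chromosomes. On chromosome 20 vehicle-missing sites made up 25.9% of its SKBR3 EGF peaks, with 45 sites against 129 other peaks. Their share was highest on chromosome 18, at 81.1%, with 30 sites against 7, followed by chromosome 16 at 76.1%, with 51 against 16, and chromosome 4 at 67.3%, with 35 against 17. The copy number of these chromosomes in the cell lines was not measured in the lists, and its part in these values was not tested.

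Within islands, the density of H3K4me1 reads at the vehicle-missing sites had a median of 44 and 43.2 reads per kb in the SKBR3 libraries and 55.0 and 45.9 in the BT474 libraries. At the SKBR3 EGF-private sites the medians were 48.4 and 50.2 in SKBR3 and 69.2 and 59.4 in BT474. The islands around the vehicle-missing sites were shorter in BT474, with medians of 3.8 and 3.6 kb, than in SKBR3, with 5.0 kb in both libraries. Islands were also shorter on average in BT474 over the whole sets. These held 96293 and 89478 islands over 309 and 296 Mb in BT474, and 72888 and 70251 over 317 and 320 Mb in SKBR3. Reads per kb were not scaled for depth, and BT474 replicate 1 held the most reads in islands.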
